A study of Mus musculus with 6 samples.

Results

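The endoplasmic reticulum (ER) protein processing genes are here those listed in the table's KEGG column for the pathway of that name. The pathway was listed for 64 of the 4864 genes analysed, and *Mapk8*, *Mapk9*, and *Rbx1* were left out because they are also listed for the cell cycle or insulin signaling pathways, which left 61 members. By their roles these were 3 genes of oxidative folding, 15 chaperone genes, 11 genes of the unfolded protein response, 23 genes of ER-associated degradation, 5 of translocation and glycosylation, and 4 of vesicle export. The pathway members *Hspa5*, *Hyou1*, *Atf4*, *Atf6*, *Eif2ak3*, *Herpud1*, and *Edem1* were not analysed here.

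RNA was sequenced from adipocytes that had been differentiated from ADSCs, the adipose-derived stem cells of wild-type mouse subcutaneous fat (male C57BL/6J in the methods). The age of the animals is not given in the sources used here. Control cultures received the differentiation cocktail (dexamethasone, insulin, 3-isobutyl-1-methylxanthine, indomethacin, and triiodothyronine), and NJT-2 cultures received it together with NJT-2 (saikosaponin A), the plant terpenoid that the study examined as a ligand of PPARγ. There were 3 libraries per group, and the methods give day 8 of differentiation for the harvest. The labels do not say whether the replicates came from separate animals or cultures, so the p-values measure the spread between these libraries, which may be technical. The comparison asked which transcripts differ when NJT-2 is present during differentiation.

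Secreted and membrane proteins enter the ER through a translocation channel, receive N-glycans, and fold with the help of chaperones. Disulfide isomerases form and rearrange their disulfide bonds, and the oxidase encoded by *Ero1l* (*Ero1a* in newer nomenclature) restores the isomerases to their oxidized form. When unfolded proteins accumulate, sensors in the ER membrane switch on the unfolded protein response, which raises chaperone and degradation genes, and proteins that fail to fold are returned to the cytosol and degraded by the proteasome. Adipocytes rely on this machinery to secrete adiponectin, whose multimers are held together by disulfide bonds.

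Each library held between 16093037 and 28929673 counts over the genes analysed, and the members took 3.84%, 4.33%, and 4.06% of them in control replicates 1, 2, and 3, with 4.28%, 6.20%, and 4.44% for the NJT-2 libraries in the same order. A library stood apart in each group. Control replicate 1 was the lowest of the 6 libraries for 33 of the 58 members tested (56.9%, against 51.1% of all tested genes), and NJT-2 replicate 2 was the highest for 16 (27.6%, against 24.4% of all tested genes) and the lowest for 14 (24.1%, against 28.2%). All 9 adipocyte marker genes analysed had higher FPKM values in every NJT-2 library than in every control library, and 6 of them passed the test. The summed FPKM of these markers was between 82.3 and 105.5 in the controls, and the NJT-2 libraries, in replicate order, had 1704, 487.8, and 1369, while *Adipoq*, which encodes adiponectin, stayed at or below 0.50 FPKM in the controls. Of the macrophage markers analysed, 1 of 4 tested (*Adgre1*) passed the test, and their summed FPKM ran from 9.67 to 12.7 in the controls and from 31.4 to 58.8 with NJT-2, with *Cd163* at or below 0.09 throughout. The difference in the sum came mostly from *Adgre1* and *Cd68*. *Csf1r* had overlapping groups and a log2 fold change of 0.03 (adjusted p = 0.974 in edgeR), so the markers did not all rise. Of the 5 preadipocyte and fibroblast markers tested, *Pi16* passed and was lower with NJT-2. The 2 endothelial markers tested did not pass (edgeR; 0 at an unadjusted p under 0.05; 0 by DESeq2 and limma), and their list, with *Vwf*, summed to at most 2.46 FPKM. In RNA from whole cultures, a change in the number of cells of a type and a change in RNA per cell cannot be told apart, and the part of these shifts in the results below was not tested.

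*Ero1l* was the only member that passed the test in edgeR, and it was higher with NJT-2. Of the 61 members, 58 passed the filter of a mean FPKM of at least 0.5 and were tested with edgeR's quasi-likelihood test on the counts. A call needed a log2 fold change beyond 1 in either direction and an adjusted p below 0.05. By this rule, 1 of the 58 was called higher, where 0.567% of all 3705 genes tested were called higher. No member was called lower, where 0.135% of all genes were (0.702% in either direction). With the replicate number as a block the call was the same, where 1.16% of all genes were called higher and 0.378% lower. At an unadjusted p under 0.05, 3 members were higher (5.17%, against 8.04% of all genes tested) and 4 were lower (6.90%, against 9.72%). DESeq2 called 2 members higher (4.4% of all genes) and 1 lower (3.4% of all genes). Limma on log2(FPKM + 1) called *Ero1l* only, with 15 higher and 8 lower over all 3705 genes tested. The median log2 fold change of the 58 members was 0.01 beside 0.02 over all genes tested. The 3 members under the filter included the lens crystallin gene *Cryaa*, with at most 0.06 FPKM, and *Derl3*, with at most 0.39.

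**Figure D1:**
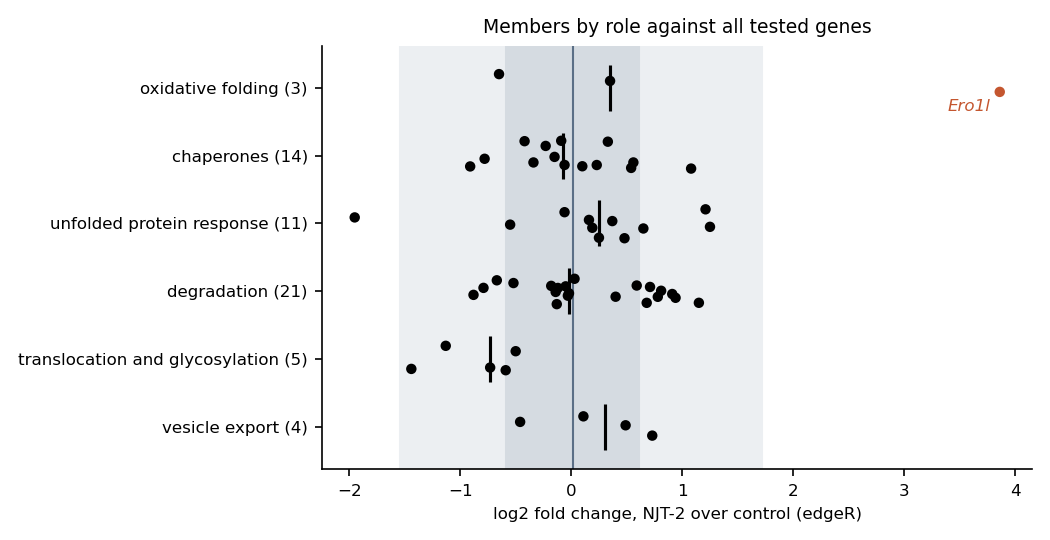
Log2 fold change of each tested member (points) by role, with the number tested in parentheses and the role's median as a black bar. The grey bands hold the central 50% and 90% of all tested genes and the blue line marks their median of 0.02. *Ero1l*, in red, is the member called and lies at 3.86, while the other members lie between -1.95 and 1.25.

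*Ero1l* (ENSMUSG00000021831) had an FPKM of 17.4, 29.6, and 38.8 in control replicates 1, 2, and 3, and the NJT-2 libraries, in the same order, had 263, 777, and 282. Every NJT-2 library lay above every control library, and NJT-2 replicate 2 was 2.85 times the mean of the other two. The means were 28.6 ± 10.7 and 441 ± 292 (SD, n = 3 each), and the log2 fold change was 3.86 (SE 0.58, adjusted p = 0.0408 in edgeR), a 14.6-fold rise. The call was lost when any library other than NJT-2 replicate 2 was left out, with adjusted p-values of 0.122, 0.293, and 0.0834 without control replicates 1, 2, and 3 and of 0.106 and 0.102 without NJT-2 replicates 1 and 3, while the log2 fold change stayed between 3.74 and 4.15. Each of the fits that lost the call had at most 2 genes called higher and at most 2 lower over all genes tested. Without NJT-2 replicate 2 the log2 fold change of *Ero1l* was 3.09 (adjusted p = 0.0166 in edgeR). Without both this library and control replicate 1 it was 2.99 (adjusted p = 0.00263).

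*P4hb*, the gene of protein disulfide isomerase, which is also a subunit of the collagen prolyl hydroxylase, was among the most abundant members, at 341, 538, and 490 FPKM in the controls and 373, 1102, and 426 with NJT-2. NJT-2 replicate 2 lay far above the rest and the other two NJT-2 libraries lay within the range of the controls. Its log2 fold change was 0.35 (SE 0.50, adjusted p = 0.697 in edgeR), and it was -0.40 without NJT-2 replicate 2. *Pdia6*, another disulfide isomerase gene, had 117, 130, and 99.95 FPKM in the controls and 73.5, 100.4, and 81.3 with NJT-2. The groups touched at control replicate 3 and NJT-2 replicate 2, and the log2 fold change of -0.65 (SE 0.37) did not pass the test (adjusted p = 0.349).

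As both isomerase genes were read in the same libraries, the *Ero1l* level was also taken as a ratio of FPKM values within each library, which no scaling between libraries can change. The ratio of *Ero1l* to *P4hb* was 0.0510, 0.0550, and 0.0791 in the controls and 0.706, 0.705, and 0.662 with NJT-2. NJT-2 replicate 2, which stood apart in both genes, had the same ratio as its group, so that the spread among the NJT-2 libraries was much smaller in the ratio (0.691 ± 0.0252) than in either level. The ratio was 11.4-fold higher with NJT-2 by the geometric means (exact permutation test over the 6 libraries, two-sided, p = 0.1, the smallest that 3 libraries against 3 allow). The ratio of *Ero1l* to *Pdia6* was between 0.149 and 0.388 in the controls and was 3.58, 7.74, and 3.47 with NJT-2 (19.4-fold, exact permutation p = 0.1). The ratio of the isomerase genes to each other, *P4hb* to *Pdia6*, did not overlap between the groups either, at 2.91, 4.15, and 4.90 in the controls and 5.07, 11.0, and 5.24 with NJT-2 (1.70-fold, exact permutation p = 0.1), so that this p does not single out *Ero1l*.

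**Figure D2:**
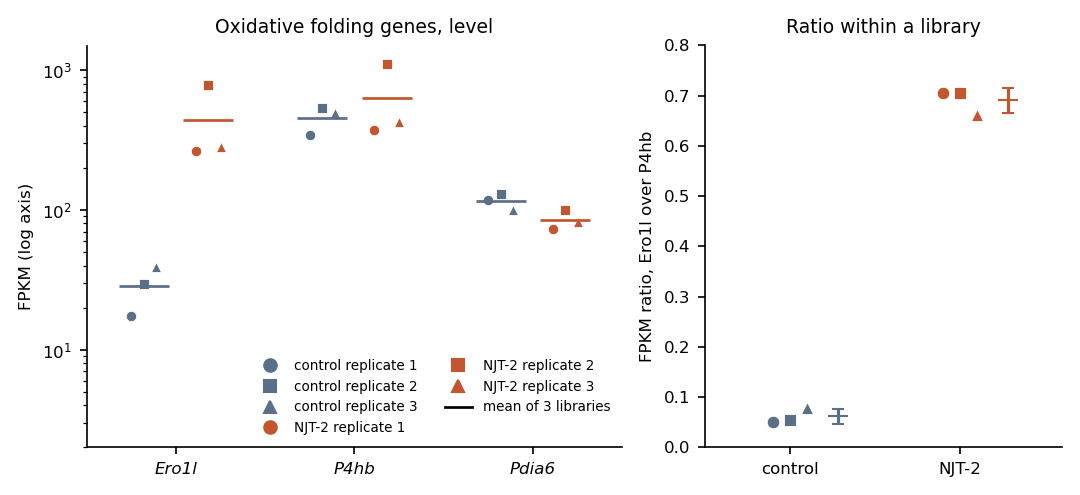
Left, FPKM of *Ero1l*, *P4hb*, and *Pdia6* in each library on a log axis, with symbols for the replicates and bars for the means of 3 libraries. Right, the ratio of *Ero1l* to *P4hb* within each library, with mean and SD (n = 3). The ratio is near 0.7 in the 3 NJT-2 libraries and under 0.08 in the 3 controls.

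The promoters of *Ero1l* and *P4hb* are shown because the ratio above sets these 2 genes side by side. Each is the 250 bases before the start site in RefSeq (GRCm38.p6, minus strand, chr14:45318573-45318822 for *Ero1l* and chr11:120573254-120573503 for *P4hb*), and capitals mark ACGTG or GCGTG, the core letters of the hypoxia response element, on either strand.
Ero1l: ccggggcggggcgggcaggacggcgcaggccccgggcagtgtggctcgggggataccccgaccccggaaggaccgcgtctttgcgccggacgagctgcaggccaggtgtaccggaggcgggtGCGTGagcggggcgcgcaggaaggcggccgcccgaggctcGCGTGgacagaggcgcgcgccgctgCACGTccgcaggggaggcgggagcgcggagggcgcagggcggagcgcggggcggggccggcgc
P4hb: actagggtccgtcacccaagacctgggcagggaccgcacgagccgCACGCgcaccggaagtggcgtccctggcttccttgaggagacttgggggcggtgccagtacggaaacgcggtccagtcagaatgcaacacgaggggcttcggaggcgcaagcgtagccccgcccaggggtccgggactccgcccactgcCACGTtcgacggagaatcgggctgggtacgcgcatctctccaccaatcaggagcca
The *Ero1l* window held 1 match to ACGTG and 2 to GCGTG, and the *P4hb* window held 1 of each. These short strings are common, as ACGTG was in 16.6% and GCGTG in 28.2% of the 32851 promoter windows of the same length. Of the 61 members, 49 had a promoter in the RefSeq table, and 21 of these held ACGTG (42.9%) and 31 GCGTG (63.3%). The direct repeat of AGGTCA with 1 base between the copies, which PPARγ binds (0.0335% of all windows), TGACGTGG, an unfolded protein response element that contains ACGTG (0.563%), TTGCATCA, an amino acid response element (0.791%), and the ERSE-II element, ATTGG and CCACG with 1 base between (0.0304%), were searched on both strands and were found in 0 of the 49 windows. At these low shares, 0 of 49 was the likely result for each element. Only exact letters in these 250 bases were searched, so the search cannot show that such sites are absent.

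*Ero1l* is known as a gene that low oxygen induces. Of the 12 genes of a list of low oxygen and glycolytic genes that were analysed, none passed the test in edgeR and limma called none. DESeq2 called 1 (*Hk2*, higher), where it called 4.4% of all genes tested higher. At an unadjusted p under 0.05 in edgeR, 3 of the 12 were higher (*Hk2*, *Pfkp*, and *Mxi1*), that is 25.0%, against 8.04% of all genes tested. The median log2 fold change of the list was 0.79. Without control replicate 1 and NJT-2 replicate 2 the median was -0.42 and 2 genes of the list were called lower. In that fit 6.29% of all genes tested were called lower and 7.15% higher. In 4 of the 12 (*Hk2*, *Pfkp*, *Mxi1*, and *Bnip3l*) every NJT-2 library lay above every control (33.3%, against 14.4% of all genes tested). The list summed to 601.2, 937.8, and 899.5 FPKM in the controls and to 622.4, 2140, and 649.2 with NJT-2, a sum to which the glycolytic gene *Pgam1* gave 683 in NJT-2 replicate 2. The part of low oxygen genes in the *Ero1l* result was not tested.

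The chaperone genes did not pass the test. Of the 14 tested, 6 had fitted log2 fold changes above 0 and 8 below, with a median of -0.08 and a range from -0.91 to 1.08. None was called by edgeR, DESeq2, or limma. At an unadjusted p under 0.05 in edgeR, 1 (*Dnajb11*) was lower (7.14%, against 9.72% of all genes tested). The large calcium-binding and heat shock chaperones were abundant in every library. *Calr*, which encodes the lectin chaperone calreticulin, had 359, 446, and 393 FPKM in the controls and 301, 385, and 332 with NJT-2, with overlapping groups (log2 fold change -0.42, SE 0.34, adjusted p = 0.481 in edgeR). *Canx*, the gene of its membrane-bound relative calnexin, had 71.6, 96.1, and 97.4 FPKM in the controls and 83.3, 113, and 86.7 with NJT-2, so that the groups overlapped here too. Its log2 fold change of -0.06 (SE 0.32) was not distinguishable from 0 and was 0.10 with the implied library totals.

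*Hsp90b1*, which encodes the ER member of the HSP90 family, had 185, 264, and 238 FPKM in the controls and 177, 441, and 195 with NJT-2. NJT-2 replicate 2 was the highest library and NJT-2 replicate 1 the lowest. The log2 fold change was 0.10 (SE 0.46, adjusted p = 0.903 in edgeR) and was -0.52 without NJT-2 replicate 2. *Dnajb11*, a co-chaperone of the ER HSP70, had 24.5, 39.8, and 35.0 FPKM in the controls and 23.6, 14.5, and 26.8 with NJT-2. The groups overlapped at control replicate 1, and the log2 fold change was -0.78 (SE 0.31, adjusted p = 0.268). *Dnajc3*, another ER co-chaperone, had a log2 fold change of -0.15 (SE 0.30, adjusted p = 0.784), and *Sil1*, a nucleotide exchange factor for the ER HSP70, one of -0.91 (SE 0.45, adjusted p = 0.31). *Dnajc5*, which encodes a co-chaperone of secretory vesicles, had 8.68, 11.9, and 16.7 FPKM in the controls and 17.8, 49.0, and 18.3 with NJT-2, and its groups did not overlap (log2 fold change 1.08, SE 0.49, adjusted p = 0.292, and 0.35 without NJT-2 replicate 2).

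Many ER chaperone genes carry an ER stress response element (ERSE), through which ATF6 and XBP1 act. CCAAT followed after 9 bases by CCACG, on either strand, was found in 7 of the 49 members with a promoter window and in 37 of all 32851 windows (14.3% and 0.113%). The matches are shown, in capitals with 12 bases on either side, because they mark the members whose promoters hold the element of the chaperone response.
Calr: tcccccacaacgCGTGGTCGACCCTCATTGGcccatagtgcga
Canx: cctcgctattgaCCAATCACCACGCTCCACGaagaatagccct
Pdia6: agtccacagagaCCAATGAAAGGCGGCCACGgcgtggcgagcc
Dnajc3: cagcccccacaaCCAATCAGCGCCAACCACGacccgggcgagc
Syvn1: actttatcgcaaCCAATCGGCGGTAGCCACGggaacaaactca
Derl3: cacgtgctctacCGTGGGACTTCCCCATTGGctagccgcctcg
Hsp90b1: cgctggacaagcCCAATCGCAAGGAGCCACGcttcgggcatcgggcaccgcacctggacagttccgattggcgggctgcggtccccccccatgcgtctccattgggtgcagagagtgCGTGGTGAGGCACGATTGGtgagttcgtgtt
These lie, in the same order, at chr8:84847063-84847105, chr11:50325788-50325830, chr12:17266479-17266521, chr14:118937815-118937857, chr19:6046520-6046562, chr10:75893230-75893272, and chr10:86705521-86705668 (RefSeq, GRCm38.p6), on the minus strand for *Calr*, *Canx*, and *Hsp90b1* and on the plus strand for the others. The *Hsp90b1* stretch holds 2 matches. Of the 7 genes, 6 were tested, and none was called by edgeR, DESeq2, or limma or had an unadjusted p under 0.05 in edgeR. Their median log2 fold change was -0.10. *Ero1l* had no such match in its window, and a missing match says only that these letters are not in these 250 bases.

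The unfolded protein response genes did not pass the test in edgeR either. Of 11 tested, 8 had a log2 fold change above 0 and the median was 0.25. At an unadjusted p under 0.05 in edgeR, 1 (*Bax*) was lower (9.09%, against 9.72% of all genes tested). DESeq2 called *Bax* lower, where it called 3.4% of all genes tested lower, and limma called none. *Ddit3*, which encodes the stress-induced transcription factor CHOP, had 51.7, 20.4, and 14.5 FPKM in the controls and 96.8, 75.9, and 90.2 with NJT-2. The NJT-2 libraries were close to each other and all above the controls, and control replicate 1 was 3.57 times control replicate 3. The log2 fold change was 1.21 (SE 0.64, adjusted p = 0.328 in edgeR), and without single libraries it lay between 0.81 (without control replicate 3, adjusted p = 0.364) and 2.32 (without control replicate 1, adjusted p = 0.0671), with no call. With an offset for gene length in the edgeR fit, the log2 fold change of *Ddit3* was 1.99 (adjusted p = 0.0997). Without both control replicate 1 and NJT-2 replicate 2, *Ddit3* passed the test (log2 fold change 2.41, SE 0.23, adjusted p = 0.00346). *Ern1*, which encodes the sensor IRE1α, had 0.95, 3.19, and 7.04 FPKM in the controls and 5.72, 14.8, and 5.91 with NJT-2. NJT-2 replicates 1 and 3 lay below control replicate 3 (log2 fold change 1.25, SE 0.65, adjusted p = 0.323), and the log2 fold change was 0.57 without NJT-2 replicate 2 and 1.96 without control replicate 3.

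*Xbp1*, whose mRNA is spliced by IRE1α, had 19.2, 47.1, and 41.2 FPKM in the controls and 54.9, 23.3, and 61.3 with NJT-2. NJT-2 replicate 2 lay within the controls and the other two NJT-2 libraries above them (log2 fold change 0.25, SE 0.41, adjusted p = 0.729 in edgeR), and these counts per gene do not tell the spliced from the unspliced form. *Atf6b*, a relative of the sensor ATF6, had 14.1, 25.5, and 23.2 FPKM in the controls and 21.6, 5.57, and 21.0 with NJT-2, with NJT-2 replicate 2 as the lowest library (log2 fold change -0.55, SE 0.48, adjusted p = 0.52). *Bax*, the gene of a pore-forming protein of apoptosis that the pathway lists downstream of ER stress, had 244, 106, and 57.8 FPKM in the controls and 45.0, 48.3, and 44.7 with NJT-2. The groups did not overlap, but the controls spread over a 4.22-fold range, and control replicate 3 lay next to the NJT-2 libraries (log2 fold change -1.95, SE 0.68, adjusted p = 0.221 in edgeR and 0.0469 in DESeq2). Without control replicate 1 the log2 fold change of *Bax* was -0.83 in edgeR (adjusted p = 0.323), and with the gene length offset it was -1.06 (adjusted p = 0.281).

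**Figure D3:**
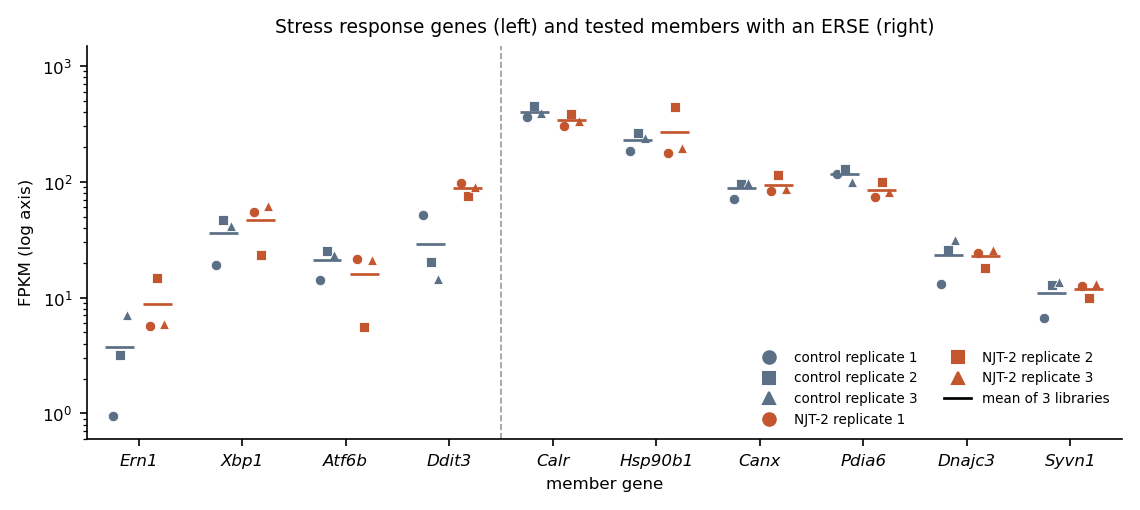
FPKM of 4 unfolded protein response genes (left of the dashed line) and of the 6 tested members with an ERSE match (right) in each library, on a log axis, with bars for the means of 3 libraries. *Ddit3* is above its controls in all 3 NJT-2 libraries (75.9 to 96.8 against 14.5 to 51.7), while the 2 groups overlap for the 6 genes with an ERSE match.

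A list of stress-related and ER folding genes outside the pathway gave values in both directions. Of the 15 genes of this list that were analysed, none passed the test in edgeR and limma called none. DESeq2 called 3 higher (*Dnajb9*, *Mthfd2*, and *Vldlr*) and 2 lower (*Fkbp10* and *Fkbp11*), where it called 4.4% of all genes tested higher and 3.4% lower. At an unadjusted p under 0.05, 5 were higher (33.3%) and 5 lower (33.3%), against 8.04% and 9.72% of all genes tested. The 5 higher were *Dnajb9*, an ER co-chaperone gene, with a log2 fold change of 1.89, and *Psat1* (0.84), *Mthfd2* (1.04), *Ddit4* (0.98), and *Vldlr* (2.34). *Psat1* and *Mthfd2* encode enzymes of serine and one-carbon metabolism. The 5 lower were *Creld2* (-1.21), *Sdf2l1* (-1.20), and *Sdf2* (-1.18), whose products assist folding in the ER, and the prolyl isomerase genes *Fkbp10* (-1.21) and *Fkbp11* (-1.90). *Dnajb9* had 3.44, 12.9, and 17.5 FPKM in the controls and 34.1, 60.2, and 32.5 with NJT-2. *Creld2* had 38.7, 40.1, and 25.0 FPKM in the controls and 16.3, 21.0, and 15.4 with NJT-2. The groups did not overlap in any of these 10 genes, which had been picked by their p in the same libraries. Over the whole list, every NJT-2 library lay above every control in 6 of 15 genes (40.0%, against 14.4% of all genes tested). Every NJT-2 library lay below them in 5 (33.3%, against 11.5%). Fitted log2 fold changes were above 0 in 8 of the 15 and below 0 in 7, with none between -0.38 (*Shmt2*) and 0.84 (*Psat1*). The median of 0.84 was thus the lowest of the values above 0 and does not describe the list. *Stc2* and *Ndrg1*, both above 0, were high in NJT-2 replicate 2 only. Without control replicate 1 and NJT-2 replicate 2 the median was -0.63, with 1 gene called higher and 3 lower. In that fit 7.15% of all genes tested were called higher and 6.29% lower.

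Among the degradation genes, the ubiquitin ligase gene *Rnf185* had the smallest p. Of 21 tested, 10 had a log2 fold change above 0 and 11 below, with a median of -0.02. None was called by edgeR or by limma, and 1 was called higher by DESeq2, which called 4.4% of all genes tested higher. At an unadjusted p under 0.05 in edgeR, 2 were higher (9.52%, against 8.04% of all genes tested). At the same limit 1 was lower (4.76%, against 9.72%). *Rnf185*, whose product is an ER membrane ligase, had 6.56, 9.24, and 8.30 FPKM in the controls and 21.5, 17.9, and 21.0 with NJT-2. The lowest NJT-2 library lay well above the highest control, and both groups were tight. The log2 fold change was 1.15 (SE 0.28, adjusted p = 0.134 in edgeR), and *Rnf185* passed in DESeq2 (adjusted p = 0.003), with the gene length offset (0.0498, a setting with 0.864% of the table called higher and 0.216% lower), and without control replicate 1 and NJT-2 replicate 2 (0.0106). *Derl1*, which encodes a channel component for the return of misfolded proteins to the cytosol, had 38.8, 53.0, and 40.9 FPKM in the controls and 101, 63.0, and 97.6 with NJT-2. Its groups did not overlap (log2 fold change 0.78, SE 0.33, adjusted p = 0.277).

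*Sel1l*, the gene of the scaffold of the degradation complex, had 6.48, 12.8, and 21.7 FPKM in the controls and 23.8, 23.2, and 24.1 with NJT-2. The NJT-2 libraries were nearly equal and the control values spread widely up to them (log2 fold change 0.71, SE 0.36, adjusted p = 0.312 in edgeR). *Syvn1*, the gene of the ubiquitin ligase that works with the product of *Sel1l*, had 6.64, 12.8, and 13.6 FPKM in the controls and 12.5, 9.91, and 13.0 with NJT-2 (log2 fold change -0.02, SE 0.28, adjusted p = 0.968). Lower values with NJT-2 were seen for *Erlec1*, an ER lectin gene, and for *Derl2*, a paralog of *Derl1*. *Erlec1* had 19.5, 38.7, and 31.9 FPKM in the controls and 21.98, 19.1, and 21.1 with NJT-2, with control replicate 1 among the NJT-2 values (log2 fold change -0.67, SE 0.28, adjusted p = 0.271). *Derl2* had 7.90, 7.36, and 5.93 FPKM in the controls and 5.01, 4.44, and 5.05 with NJT-2, with no overlap (log2 fold change -0.79, SE 0.36, adjusted p = 0.292). *Derl1* and *Derl2* thus had opposite signs, and neither passed the test. The shuttle factor gene *Ubqln1*, named after its values were seen, passed without control replicate 1 and NJT-2 replicate 2 (log2 fold change 1.04, adjusted p = 0.014), as did *Derl1* (1.07, adjusted p = 0.0237). With these 2 libraries left out, the members called were *Ero1l*, *Ddit3*, *Rnf185*, *Derl1*, and *Ubqln1*, that is 5 of 58 higher and none lower, where 7.15% and 6.29% of all genes tested were called higher and lower (edgeR). At an unadjusted p under 0.05 in this fit, 6 members were higher and 7 lower, where 1215 of all 3690 genes tested were under this limit.

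**Figure D4:**
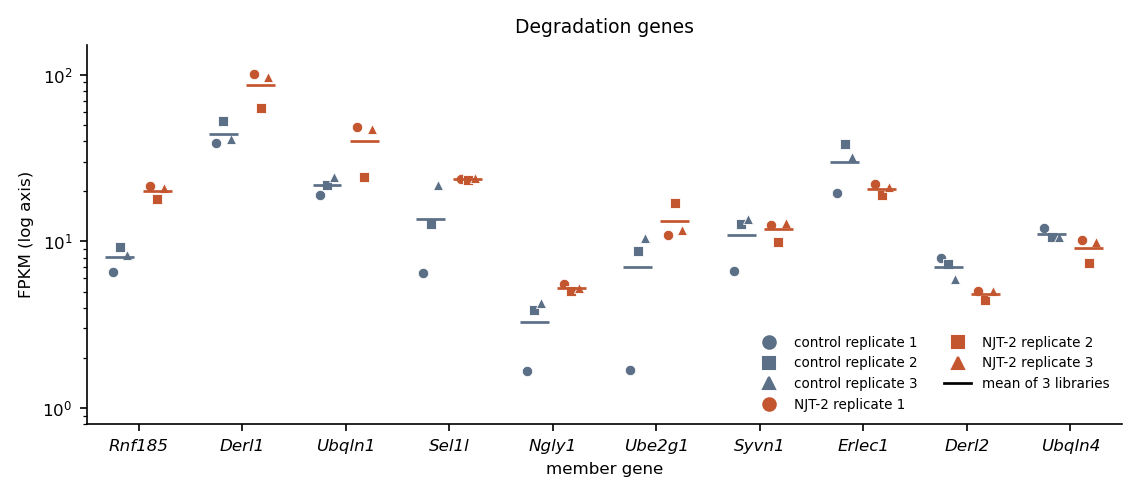
FPKM of 10 degradation genes in each library on a log axis, with bars for the means of 3 libraries. *Ubqln1*, *Ngly1*, *Ube2g1*, and *Ubqln4* were added after their values were seen. *Rnf185* lies between 17.9 and 21.5 with NJT-2 and between 6.56 and 9.24 in the controls, while the 2 groups of *Syvn1* share a range.

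All 5 genes of translocation and glycosylation had log2 fold changes below 0, from -1.44 to -0.50 with a median of -0.73, and none was called by edgeR, DESeq2, or limma. *Dad1*, a subunit gene of the oligosaccharyltransferase, was the one with an unadjusted p under 0.05. It had 64.7, 46.3, and 23.1 FPKM in the controls and 21.9, 19.6, and 20.2 with NJT-2, with control replicate 3 close to the NJT-2 libraries (log2 fold change -1.44, SE 0.53, adjusted p = 0.239 in edgeR, and -0.77 without control replicate 1). *Ssr4*, a subunit gene of the translocon-associated protein complex, had 66.7, 49.8, and 27.2 FPKM in the controls and 29.2, 23.8, and 28.6 with NJT-2, where the groups overlapped at control replicate 3 (log2 fold change -1.13, SE 0.50, adjusted p = 0.287, and -0.52 without control replicate 1). *Ssr1*, of the same complex, had a log2 fold change of -0.59 (SE 0.31, adjusted p = 0.328). Without control replicate 1 and NJT-2 replicate 2, the median of the 5 genes was -0.43, and no gene was called. The 4 vesicle export genes, which encode components of the COPII coat, had none called by edgeR, DESeq2, or limma and none at an unadjusted p under 0.05. Their log2 fold changes were 0.73 for *Sec24b*, 0.49 for *Sec23a*, -0.46 for *Sar1a*, and 0.11 for its paralog *Sar1b*.

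Values in all 3 NJT-2 libraries lay above all 3 controls in 10 of the 58 members (17.2%, against 14.4% of all genes tested) and below them in 6 (10.3%, against 11.5%). The summed FPKM of the oxidative folding genes was 475.1, 696.9, and 628.9 in the controls and 709.5, 1980, and 788.7 with NJT-2. The sum over the chaperones was 1532, 2100, and 1871 in the controls and 1646, 2141, and 1713 with NJT-2, and that over the degradation genes was 329.4, 486.3, and 428.5 in the controls and 589.2, 436.1, and 571.3 with NJT-2. By these sums NJT-2 replicate 2 was the highest library for oxidative folding, close to control replicate 2 for the chaperones, and within the controls for degradation. Sums are carried by the most abundant genes. The median log2 difference of the chaperones from the control mean was 0.16 in NJT-2 replicate 2 and 0.22 in control replicate 2. Compared with the mean of NJT-2 replicates 1 and 3, the FPKM of NJT-2 replicate 2 was 2.76 times as high for *P4hb*, 2.37 times for *Hsp90b1*, and 2.55 times for *Ern1*, but 0.261 times for *Atf6b* and 0.401 times for *Xbp1*.

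**Figure D5:**
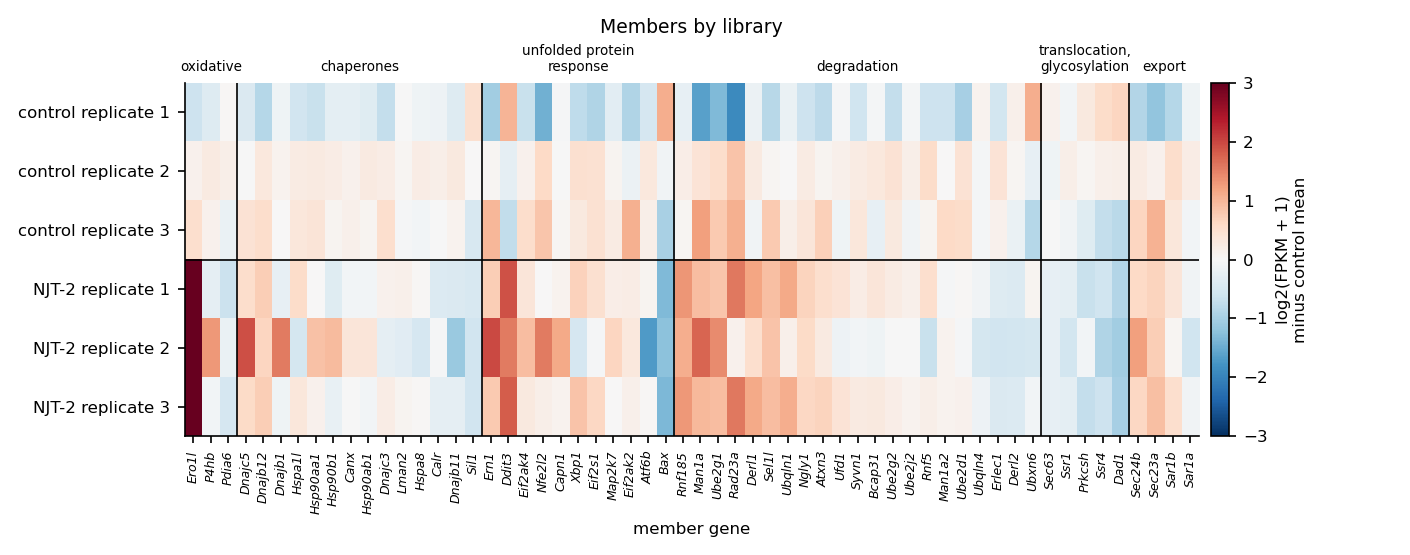
Each tested member by library as log2(FPKM + 1) less the mean of the 3 controls, grouped by role and ordered by fitted fold change within a role. Colours end at 3 in either direction, which the *Ero1l* values of the NJT-2 libraries exceed, and control replicate 1 and NJT-2 replicate 2 differ from the other libraries of their groups in many members.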

How the data were processed

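Wild-type mouse ADSC-derived adipocytes were profiled by RNA sequencing, with 3 control and 3 NJT-2 libraries. The table deposited by the authors gives raw counts per gene and FPKM, that is, counts scaled to gene length and library size. The submitters' processing notes name cutadapt 1.9, HISAT2 2.2.1, StringTie 2.1.6, and the GRCm38 build. The libraries were made by a stranded dUTP protocol, and the counting settings, including strand, are not given in the sources used here. The 4864 complete lines analysed, which exclude 1 line cut short, held 27.7% to 32.5% of each library's implied total. Columns of the authors' own comparison (fold changes and p-values) were not used.

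Genes were kept if their FPKM averaged 0.5 or more over the libraries, and the counts of these 3705 were normalized by TMM and tested with edgeR 4.0.16 (quasi-likelihood, two-sided, R 4.3.3), with no covariate. A gene was called at a Benjamini-Hochberg adjusted p under 0.05 over all genes tested and an absolute log2 fold change over 1. On simulated counts for 3705 genes, 197 of 200 genes changed by a log2 fold of 3 were recovered by edgeR with 5 false calls, and 199 by DESeq2 with 33 false calls. Recovery was not tested for smaller changes, and the tested members other than *Ero1l* lay between -1.95 and 1.25. Nor was it tested with a library that stands apart in each group, as here. Every simulated gene was given the same spread between libraries, the common one, whereas real genes differ in spread. The recovery and the false calls of either method need not hold for these data. A member that was not called is therefore not shown to be unchanged. The SE given with an edgeR log2 fold change is the size of that change divided by the square root of its F statistic. Levels are FPKM, and ratios were compared by the exact permutation test. Alternatives were DESeq2 1.42.0, limma 3.58.1 on log2(FPKM + 1) and log2(FPKM + 0.1), other scalings and filters, a replicate block, and fits without each library. The common biological coefficient of variation was 0.504. No pair of libraries of a group agreed within counting noise, but NJT-2 replicates 1 and 3 were far closer (chi-square of 56.6 per gene) than the other pairs (458 to 1969).

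Named with values were all oxidative folding genes, the 13 analysed genes of a fixed list of 24, every member called, and the 3 members with the smallest p in each role, together 27. The members and all lists were chosen with earlier results of these data known. Promoter sequences are from RefSeq (GRCm38.p6), searched over the 250 bases before the start. The values of 1 member under the filter are not reported here.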

Additional observations from a re-analysis of the deposited data

How the results depend on the processing

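Across 19 alternatives, 22 of the 27 named members kept their direction. The members called, 1 in the reported fit, were 3 with DESeq2, 2 with the gene length offset, 5 without control replicate 1 and NJT-2 replicate 2 together, and 0 to 1 when single libraries were left out. Over all genes tested, DESeq2 called 163 higher and 126 lower, and the gene length offset 32 and 8. The fit without both libraries called 264 and 232, and those without single libraries 0 to 59 and 0 to 21. The members at an unadjusted p under 0.05, 7 in the reported fit, were 13 without both libraries and 3 to 11 without single ones. Over all genes, 658 of 3705 were under this limit in the reported fit and 1215 of 3690 without both libraries. Without single libraries 402 to 1048 genes were. The median log2 fold change of the members, 0.01 as reported, was 0.21 with the gene length offset, 0.19 with the implied library totals, 0.20 and 0.16 with limma at pseudocounts of 0.1 and 1, -0.03 with upper-quartile factors, -0.06 without both libraries, and -0.13 to 0.09 without single ones. The median of all genes, 0.02 as reported, was 0.03 with the gene length offset, 0.16 with the implied totals, and 0.17 and 0.14 with limma. The other 5 members reversed, none of them called in any fit. *Canx* was 0.10 with the implied totals and at both pseudocounts, and -0.27 to 0.04 without single libraries. *Dnajc3* was 0.04 and 0.03 with limma at 0.1 and 1. *Hsp90b1* was -0.06 with the replicate block, -0.44 without both libraries, and -0.52 to 0.36 without single ones. *P4hb* was -0.37 without both libraries and -0.40 to 0.64 without single ones. *Syvn1* was 0.10 with the implied totals, 0.16 and 0.14 with limma, and -0.17 to 0.05 without single libraries. The causes were not tested. The replicate block called 1 member, and 43 genes higher and 14 lower over the whole table, against 21 and 5 without it. The numbers share no stated origin, and same-numbered libraries correlated at 0.179, 0.032, and -0.207, so they were not treated as pairs. With TMM-scaled CPM in place of FPKM, an alternative chosen after seeing the data, 19 members had groups that did not overlap (9 higher, 10 lower), against 16 (10 and 6).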
